A study of Mus musculus with 5 samples.

Results

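The expression of 9 genes of pericytes and vascular smooth muscle cells was followed in primary mouse melanomas, out of 23284 genes with FPKM values, a unit that divides fragments by transcript length and library size. The 9 genes, Rgs5, Abcc9, Kcnj8, Pdgfrb, Notch3, Acta2, Tagln, Myh11 and Mcam, were chosen by symbol, and each had 1 row in the table. Tumors of 3 libraries were grown from B16F1 cells, a melanoma line of C57BL/6 mice, and tumors of 2 libraries from B16F1-CXCL5 cells, the same line overexpressing the neutrophil-attracting chemokine CXCL5. Both kinds of cells were injected into flank skin, intradermally, in C57BL/6 J mice that had no treatment, and tumors were removed at 250 to 350 mm³ and sequenced whole from poly(A) RNA. No source used here gives the promoter that drives CXCL5, the number of clones or the age of the mice. Whether every library is from its own mouse is also unstated, so the spread between libraries may in part be technical. The series title asks what CXCL5 overexpression does to the tumor microenvironment, and the comparison below gives the mural cell side of it.

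Mural cells wrap the endothelial tube of blood vessels. Pericytes sit on capillaries within the basement membrane and are recruited by PDGF-B from endothelial cells acting on the receptor PDGFRB, while Notch ligands on endothelial cells act on NOTCH3 in mural cells. Vascular smooth muscle cells surround larger vessels and contract through smooth muscle actin and myosin, whose genes are controlled by serum response factor (SRF) with the coactivators myocardin and MRTF. Several of these genes are shared with other cells: fibroblasts can carry PDGFRB, activated fibroblasts make ACTA2 and TAGLN, and MCAM is made by endothelial cells and by melanoma cells.

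Upstream sequence is shown for the 3 genes whose libraries did not overlap between the groups, Rgs5, Kcnj8 and Abcc9. Of all tested genes, 10.8% were apart in this direction. Matches to the SRF motif before the RefSeq start of Acta2, the classical contractile gene, are also shown. All are from RefSeq (GRCm38.p6), whose table matched 6 of the 9 genes, and each is written 5′ to 3′ on the strand of its gene. The upstream windows begin 250 bases before the RefSeq start and end before the first exon of GENCODE M21. Capitals mark matches to the CArG box (the SRF motif, with at most 1 differing base) or to TGGGAA on either strand, the core bound by the Notch partner RBPJ. In the Acta2 sites they mark the CArG box only. The Acta2 sites were not cut at GENCODE exons. They lie within the GENCODE span of this minus-strand gene, whose 5′ end is at 34255590, so they are upstream of the RefSeq start only.
Kcnj8, chr6:142571615-142571864, minus strand: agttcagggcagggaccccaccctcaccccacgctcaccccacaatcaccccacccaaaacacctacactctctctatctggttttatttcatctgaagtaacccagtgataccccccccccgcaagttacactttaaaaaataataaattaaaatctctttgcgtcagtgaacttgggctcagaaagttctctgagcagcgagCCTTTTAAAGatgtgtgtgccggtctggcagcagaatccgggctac
Abcc9, chr6:142702316-142702524, minus strand: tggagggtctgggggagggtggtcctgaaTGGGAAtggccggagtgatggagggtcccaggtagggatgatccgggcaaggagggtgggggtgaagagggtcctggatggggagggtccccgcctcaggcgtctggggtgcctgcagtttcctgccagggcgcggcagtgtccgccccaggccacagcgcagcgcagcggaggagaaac
Rgs5, chr1:169655251-169655500, plus strand: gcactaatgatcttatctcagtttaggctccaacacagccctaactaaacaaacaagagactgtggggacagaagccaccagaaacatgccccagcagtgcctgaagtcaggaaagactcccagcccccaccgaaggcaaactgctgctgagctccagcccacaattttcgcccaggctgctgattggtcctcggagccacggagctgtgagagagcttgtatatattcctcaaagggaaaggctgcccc
Acta2 site at -84 to -75 from the start, chr19:34255438-34255467, minus strand: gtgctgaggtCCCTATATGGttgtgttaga
Acta2 site at -34 to -25 from the start, chr19:34255388-34255417, minus strand: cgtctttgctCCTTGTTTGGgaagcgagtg
Both Acta2 sites match the CArG box with 1 differing base, and a TGGGAA at -27 to -22 overlaps the second of them. Kcnj8 had 1 such match, at -46 to -37. Abcc9 had a TGGGAA at -221 to -216. No CArG box, CArG box with 1 differing base, TGGGAA or TATAAA was found in the 250 bases before Rgs5, Notch3 or Mcam. Pdgfrb, Tagln and Myh11 were not matched and so were not searched. Among 32851 upstream windows of the same length, 18.6% held a CArG box with at most 1 differing base, 1.47% an exact one, 21.6% TGGGAA and 12.4% TATAAA, and the matches are given as a description.

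Cxcl5 itself, the overexpressed gene, had 1.86, 3.62 and 1.01 FPKM in B16F1 libraries 1, 2 and 3, the order used throughout, and 83.7 and 85.4 FPKM in B16F1-CXCL5 libraries 1 and 2. The steps of the low FPKM values implied 26200000 to 28550000 fragments per library, an estimate that assumes fragments of 200 nt, and 51.2% to 59.3% of those values lay within 0.15 of a whole fragment. Part of the values would lie that close at any depth, so the estimate and the fragment numbers from it are rough. RNA integrity numbers were 8.7 to 9.5. Libraries differed in their content of adjoining tissue. The summed FPKM of 10 skeletal muscle markers was 658, 670 and 2036 in B16F1 and 609 and 1517 in B16F1-CXCL5 tumors, and that of 10 keratinocyte markers was 437, 446 and 1203 against 504 and 650. No marker of either list was at 0. B16F1 library 3 and, for muscle, B16F1-CXCL5 library 2 thus stood above the others.

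Levels of the 9 genes spanned a wide range with a stable order. In every library Mcam was highest, Acta2 was next and Myh11 was lowest, and Pdgfrb stood in the middle at 3.68 to 6.69 FPKM. The neighbours Rgs5 and Tagln changed places in B16F1 library 3, and Kcnj8 and Notch3 changed places between libraries of both groups, so neither pair was separated beyond its spread. All 9 genes reached an FPKM of 1 in at least 4 libraries, and all 9 passed the filter for testing. By the depth estimate and the longest coding transcript, the thinnest values rested on about 90 fragments for Kcnj8 and 163 for Myh11, and those of Mcam on 2992 or more. Counting error alone is then about 10.5% of the lowest Kcnj8 value and 7.83% of the lowest Myh11 value, below the 25.1% and 28.1% coefficients of variation of these genes over the 3 B16F1 libraries.

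None of the 9 genes passed an adjusted p of 0.05 in the limma fit over all 12533 genes tested, where 0.136% of genes passed and 0.128% were higher in B16F1-CXCL5 tumors. At an unadjusted p under 0.05, 2 of the 9 were higher in B16F1-CXCL5 tumors, Rgs5 and Abcc9, against 3.57% of tested genes. All 9 log2 fold changes were positive, against 46.6% of tested genes, and their median was 0.22, against -0.01 over all tested genes. The smallest was 0.01, for Tagln, and 7 of the 9 were positive without B16F1 library 2. The 9 genes were chosen with earlier results of these data known, so these shares are a description only. A positive shift was not particular to the 9. The median was 0.23 for 12 fibroblast markers, 9 of them positive, and 0.12 for 8 macrophage markers, all 8 positive. For 9 melanocyte lineage and 10 keratinocyte markers it was -0.12 and -0.10, with 2 positive in each list. The median was 0.39 for the 5 pericyte genes and 0.09 for the 3 contractile genes. The groups did not overlap for 3 of the 9, Rgs5, Abcc9 and Kcnj8, all higher in B16F1-CXCL5 tumors, against 10.8% of tested genes in this direction. In whole tumors, more mural cells and more RNA per mural cell cannot be told apart.

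**Figure D1:**
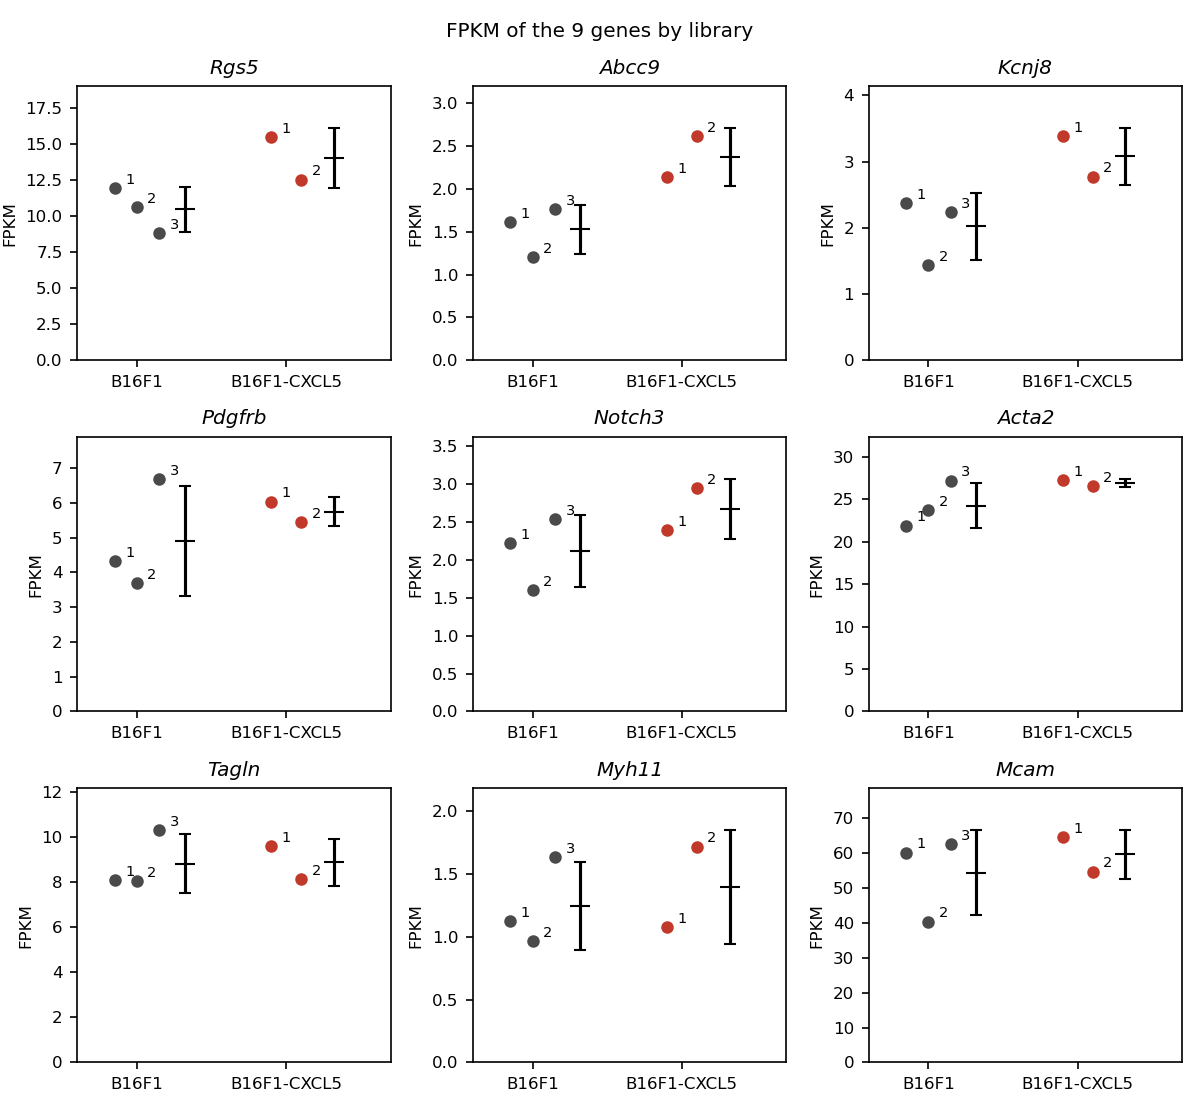
FPKM of each gene in the 3 B16F1 and 2 B16F1-CXCL5 libraries, on linear axes from 0, with library numbers beside the points and the group mean and SD as a bar. The groups are separate for Rgs5, Abcc9 and Kcnj8 and overlap for the other 6 genes (10.8% of tested genes were separate in this direction), and B16F1 library 2 is the lowest point for 7 of the 9.

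Rgs5, a regulator of G protein signalling that is enriched in pericytes and dampens contractile signals, lies on chromosome 1 from 169655501 to 169695813 (GRCm38, here and below). It had 11.97, 10.7 and 8.86 FPKM in B16F1 tumors and 15.5 and 12.6 FPKM in B16F1-CXCL5 tumors. Both B16F1-CXCL5 libraries were above all 3 of the others, although B16F1 library 1 and B16F1-CXCL5 library 2 were close. Mean FPKM was 10.5 ± 1.56 (SD, n = 3) in B16F1 and 14.05 ± 2.10 (SD, n = 2) in B16F1-CXCL5 tumors, 1.34 times as high. On the log2 scale the difference was 0.39 with a 95% confidence interval from 0.02 to 0.76 and a limma adjusted p of 0.536. Rgs5 was the only one of the 9 genes with its lowest value in B16F1 library 3, the library with the most muscle and keratinocyte signal.

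Kcnj8 and Abcc9 encode the pore (Kir6.1) and the sulfonylurea receptor (SUR2) of the ATP-sensitive potassium channel of vascular mural cells, which lowers their tone when it opens. The genes are neighbours on the minus strand of chromosome 6, Kcnj8 from 142564837 to 142571614 and Abcc9 from 142587862 to 142702315, with 16247 bases and no other annotated gene between them. Kcnj8 had 2.38, 1.44 and 2.24 FPKM in B16F1 tumors and 3.38 and 2.77 FPKM in B16F1-CXCL5 tumors. Abcc9 had 1.61, 1.20 and 1.76 FPKM against 2.14 and 2.61 FPKM. Neither gene overlapped between the groups, as was so for 10.8% of tested genes in this direction, and both were lowest in B16F1 library 2.

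The ratio of mean FPKM was 1.52 for Kcnj8, with 2.02 ± 0.507 (SD, n = 3) and 3.08 ± 0.430 FPKM (SD, n = 2). It was 1.56 for Abcc9, with 1.52 ± 0.288 and 2.37 ± 0.336 FPKM. Neither difference passed. The log2 fold change of Kcnj8 was 0.44 with an interval from -0.01 to 0.90 (limma adjusted p = 0.569), and that of Abcc9 was 0.42 with an interval from 0.04 to 0.80 (limma adjusted p = 0.514). Per length, Kcnj8 stood 1.06 to 1.58 times above Abcc9 in each of the 5 libraries, and this ratio overlapped between the groups. The other pair of subunits of such channels, known from pancreatic islets, was barely present, with Kcnj11 at 0.230 to 0.701 FPKM and Abcc8 at 0.0171 to 0.0442 FPKM. Neither of these passed the filter.

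Pdgfrb, the receptor through which PDGF-B recruits pericytes, lies on chromosome 18 from 61045150 to 61085061. It had 4.33, 3.68 and 6.69 FPKM in B16F1 tumors and 6.04 and 5.45 FPKM in B16F1-CXCL5 tumors. Its highest value was in B16F1 library 3, so the groups overlapped, and the log2 fold change was 0.22 with an interval from -0.32 to 0.77 (limma adjusted p = 0.833). Fibroblast markers followed a like order: 12 of 12 were tested, none was at 0, 9 of them had their highest value in B16F1 library 3, and their summed FPKM was 982 to 2008 in B16F1 and 1711 to 1916 in B16F1-CXCL5 tumors. The part of fibroblasts in the Pdgfrb values was not tested. Pdgfra, the PDGF receptor of fibroblasts, had 2.76, 2.53 and 5.15 against 5.07 and 3.41 FPKM, and the ratio of Pdgfrb to Pdgfra stayed between 1.19 and 1.60 with overlapping groups.

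Of 5 tested PDGF ligand and receptor genes beside Pdgfrb, 0 passed the limma test in either direction (0.136% of tested genes did). None had an unadjusted p under 0.05, against 1124 of 12533 tested genes. Pdgfb, the endothelial ligand, had 2.89, 3.95 and 4.24 FPKM in B16F1 and 4.68 and 5.11 FPKM in B16F1-CXCL5 tumors. Its groups did not overlap, as was so for 10.8% of tested genes in this direction, and the log2 fold change was 0.34 with an interval from -0.04 to 0.73 (limma adjusted p = 0.617). Pdgfa had 6.89 ± 0.566 FPKM (SD, n = 3) and 6.52 ± 0.00872 FPKM (SD, n = 2), and Pdgfc 1.14 ± 0.368 and 1.42 ± 0.391 FPKM. Pdgfd, below the filter, had 0.811 ± 0.0929 and 1.04 ± 0.0600 FPKM.

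Notch3, the Notch receptor of mural cells, lies on chromosome 17 from 32120820 to 32166852. It had 2.22, 1.60 and 2.53 FPKM in B16F1 tumors and 2.39 and 2.95 FPKM in B16F1-CXCL5 tumors. B16F1 library 3 stood above B16F1-CXCL5 library 1, and the log2 fold change was 0.24 with an interval from -0.18 to 0.67 (limma adjusted p = 0.75). Of 10 tested genes of the Notch pathway, 0 passed the limma test (0.136% of tested genes did). None had an unadjusted p under 0.05, against 1124 of 12533 tested genes. A positive log2 fold change was found for 8 (46.6% of tested genes), and the median was 0.10. Dll4, the Notch ligand of sprouting endothelium, had 2.19 ± 0.270 and 2.65 ± 0.144 FPKM. Jag1, the ligand that signals from endothelium to mural cells, had 3.70 ± 0.382 and 4.01 ± 0.729 FPKM. Notch2 had 4.45 ± 0.911 and 5.43 ± 0.0483 FPKM, and Rbpj, the nuclear partner of Notch, 15.9 ± 2.08 and 17.8 ± 0.185 FPKM. The groups of Dll4, Notch2 and Rbpj did not overlap, 3 of the 10 against 10.8% of tested genes. Among Notch target genes, Hes1 had 5.52 ± 1.60 and 5.89 ± 0.477 FPKM. Hey1 had 1.19 ± 0.0777 and 1.06 ± 0.117 FPKM, and Nrarp 5.08 ± 1.75 and 4.22 ± 0.135 FPKM. The log2 fold changes of Hey1 and Nrarp, -0.09 and -0.18, were the negative ones of the 10, and their groups overlapped. Heyl, a target in mural cells, had 0.994 ± 0.123 and 0.827 ± 0.132 FPKM. Hey2 had 0.492 ± 0.0366 and 0.634 ± 0.0832 FPKM. Heyl and Hey2 were below the filter.

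The 3 contractile genes had group means that differed by less than the SD of their B16F1 libraries. Acta2, smooth muscle alpha actin, on chromosome 19 from 34241090 to 34255590, had 21.9, 23.7 and 27.2 FPKM in B16F1 tumors and 27.3 and 26.5 FPKM in B16F1-CXCL5 tumors. B16F1 library 3 lay between the B16F1-CXCL5 libraries. Mean FPKM was 24.3 ± 2.70 (SD, n = 3) in B16F1 and 26.9 ± 0.50 (SD, n = 2) in B16F1-CXCL5 tumors, and the log2 fold change was 0.15 with the narrowest interval of the 9 genes, from -0.11 to 0.41 (limma adjusted p = 0.75). Tagln, transgelin, an actin-binding protein of smooth muscle on chromosome 9 from 45929619 to 45936058, had 8.09, 8.04 and 10.3 FPKM against 9.61 and 8.15 FPKM. Its ratio of means was 1.01 and its log2 fold change 0.01, with an interval from -0.33 to 0.36 (limma adjusted p = 0.989).

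Myh11, the heavy chain of smooth muscle myosin and the most specific smooth muscle gene of the 9, lies on chromosome 16 from 14194535 to 14291372. It had 1.12, 0.966 and 1.63 FPKM in B16F1 tumors and 1.08 and 1.72 FPKM in B16F1-CXCL5 tumors, with a log2 fold change of 0.09 and an interval from -0.40 to 0.59 (limma adjusted p = 0.939). The high values were those of B16F1 library 3 and B16F1-CXCL5 library 2. These were also the highest libraries for 8 of 9 tested skeletal muscle markers, among them Acta1, skeletal actin, at 769 and 538 FPKM against 238 to 255 FPKM in the other 3. The same pair was highest for 5 of 15 genes of the other smooth muscle list, against 7.42% of tested genes. These were Actg2, Tpm1, Tpm2, Ppp1r12b and Ldb3. Ldb3 had 19.0 and 14.7 FPKM in the pair against 4.42 to 6.17 FPKM. Tpm2 had 92.5 and 63.6 against 27.1 to 28.3 FPKM. The differences of Actg2, Tpm1 and Ppp1r12b were smaller. The part of adjoining tissue in the values of Myh11 and of these 5 genes was not tested.

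Of 15 tested smooth muscle genes outside the 9, 0 passed the limma test in either direction (0.136% of tested genes did). None had an unadjusted p under 0.05, against 1124 of 12533 tested genes. A positive log2 fold change was found for 7 (46.6% of tested genes), and the median was -0.02. The list includes Ldb3 and Tpm2, which were high in the libraries rich in skeletal muscle markers. Mylk, the kinase that starts smooth muscle contraction, had 9.29 ± 1.897 and 10.9 ± 1.71 FPKM, and Smtn, smoothelin, 17.8 ± 1.33 and 16.5 ± 0.666 FPKM. The most abundant members, Csrp1 at 401 ± 67.5 and 352 ± 6.86 FPKM and Tpm1 at 299.7 ± 63.4 and 272 ± 34.2 FPKM, are made by many cell types. Srf, Mkl1 (MRTF-A), Mkl2 (MRTF-B) and Myocd encode factors that act on CArG boxes such as those before the RefSeq start of Acta2. Srf had 24.4 ± 2.93 and 26.0 ± 4.13 FPKM and Mkl1 10.1 ± 0.792 and 9.94 ± 0.990 FPKM. Mkl2 had 7.92 ± 1.35 and 8.64 ± 0.506 FPKM. Myocd, myocardin, was at 0.0156 to 0.0901 FPKM in all 5 libraries. Srf, Mkl1, Mkl2 and Myocd were named for their role after their values were seen.

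Mcam, the adhesion molecule CD146, lies on chromosome 9 from 44134469 to 44142727. It had 60.1, 40.3 and 62.5 FPKM in B16F1 tumors and 64.6 and 54.6 FPKM in B16F1-CXCL5 tumors. B16F1 library 2 was well below the other 4, which lay between 54.6 and 64.6 FPKM, and the log2 fold change was 0.15 with an interval from -0.36 to 0.66 (limma adjusted p = 0.894). Mcam was 3.78 to 7.06 times as high as Rgs5 in each library. Of 9 melanocyte lineage markers, 9 were tested and none was at 0. Their summed FPKM was 12843, 11202 and 9434 in B16F1 and 10068 and 11018 in B16F1-CXCL5 tumors, so B16F1 library 2 was not the lowest for these. How much of the Mcam signal came from melanoma cells was not tested.

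**Figure D2:**
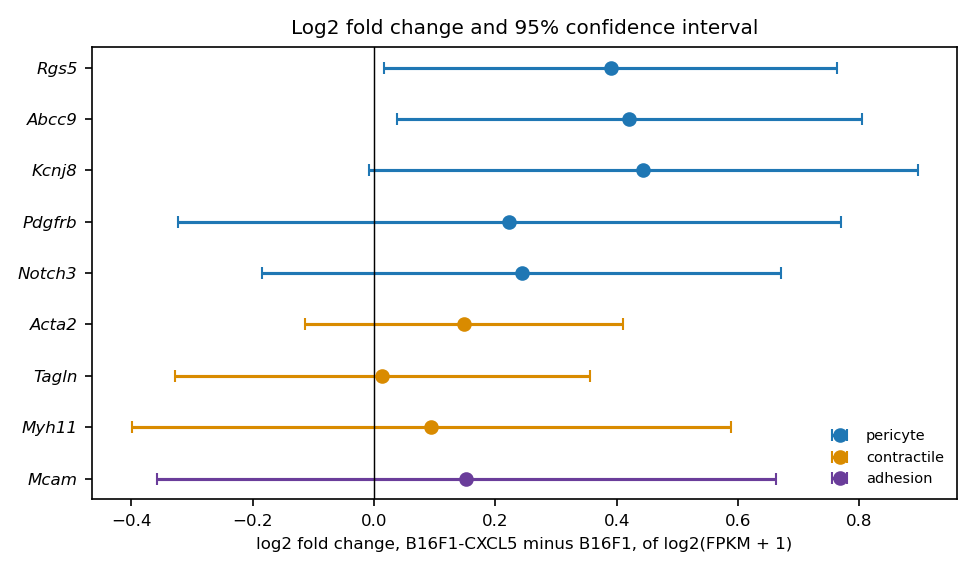
Log2 fold change of each gene, B16F1-CXCL5 minus B16F1, with its 95% confidence interval from the limma fit, colored by role. All 9 points are above 0 (46.6% of tested genes were), only the intervals of Rgs5 and Abcc9 lie wholly above 0, and no gene passed after adjustment.

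The 9 genes did not vary as 1 unit. As the measure of likeness, the root mean square difference of log2(FPKM + 1), centred for each gene over the 5 libraries, was smallest for the pairs Abcc9 and Notch3 (0.10) and Acta2 and Tagln (0.10), and largest for Rgs5 and Myh11 (0.36). The channel subunits Kcnj8 and Abcc9 were at 0.15. The genes most like Rgs5 were Plscr2, a phospholipid scramblase gene (0.03), 1810062G17Rik (0.05) and Camk2n1, an inhibitor of the kinase CaMKII (0.05). Plscr2 was low, at 0.941, 0.785 and 0.543 FPKM in B16F1 and 1.59 and 1.05 FPKM in B16F1-CXCL5 tumors. Plscr2 thus passed the filter only through the B16F1-CXCL5 libraries. Kcnj8, the member nearest to Rgs5, ranked 2080 of 12532 tested genes. The genes most like Acta2 were Endog, a mitochondrial nuclease, Srrt, an RNA processing factor, and Prkch, a protein kinase C, each at 0.03, and Tagln ranked 491. These ranks rest on 5 libraries and describe them only.

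B16F1 library 2 set part of the difference between the groups. It was the lowest of the 3 B16F1 libraries for 7 of the 9 genes, against 29.4% of tested genes, and B16F1 library 3 was the highest for 7 of the 9, against 30.2%. Without B16F1 library 2 the median log2 fold change of the 9 fell from 0.22 to 0.12. The value of Pdgfrb was then 0.07, that of Mcam -0.05 and that of Tagln -0.04. That of Rgs5 was 0.41, that of Abcc9 0.33, down from 0.42, and that of Kcnj8 0.30, down from 0.44. Rgs5 rested more on B16F1-CXCL5 library 1, without which its log2 fold change fell from 0.39 to 0.25. Without B16F1 library 3 the median was 0.28, which was the value of Rgs5.

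**Figure D3:**
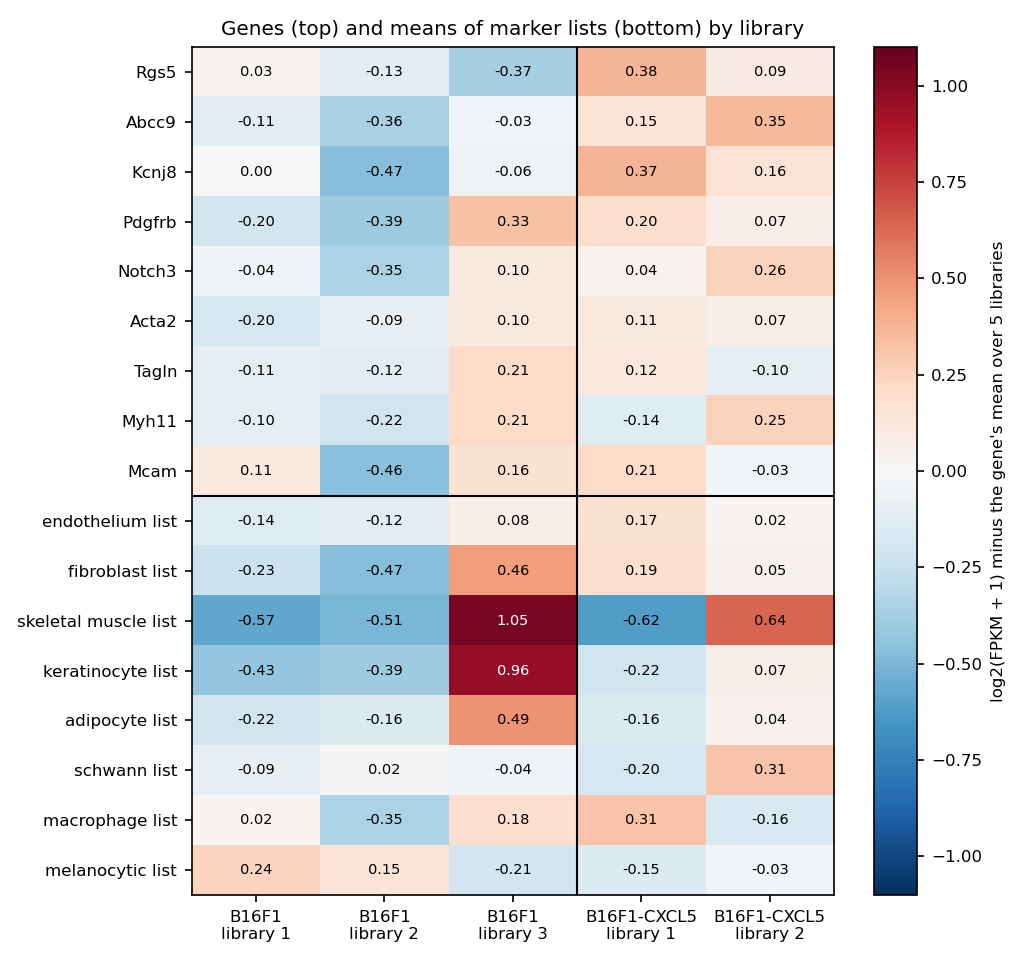
Log2(FPKM + 1) of each gene minus its mean over the 5 libraries (upper rows) and the mean of the same quantity over the tested members of marker lists (lower rows). B16F1 library 2 is low for most of the 9 genes and for the fibroblast and macrophage lists, and B16F1 library 3 is high for the fibroblast, skeletal muscle, keratinocyte and fat cell lists.

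Endothelial genes were used as a reference within each library. Whether their level follows the amount of vessel was not tested. Of 13 tested endothelial markers, 0 passed the limma test (0.136% of tested genes did). A positive log2 fold change was found for 11 (46.6% of tested genes), and the median was 0.17. At an unadjusted p under 0.05, 2 were higher (3.57% of tested genes were). Those 2 were Kdr and Flt1, the VEGF receptors, at 2.61 ± 0.185 and 3.78 ± 0.653 FPKM, and 1.78 ± 0.147 and 2.57 ± 0.349 FPKM. Of the most abundant markers, Eng, endoglin, had 69.7 ± 5.65 and 73.7 ± 0.0542 FPKM with overlapping groups, and Egfl7, a protein secreted by endothelium, 25.6 ± 3.17 and 22.3 ± 1.404 FPKM. Egfl7 was lower in both B16F1-CXCL5 libraries, as were 15.6% of tested genes. The geometric mean FPKM of the 13 was 5.05, 5.13 and 6.11 in B16F1 and 6.66 and 5.87 in B16F1-CXCL5 tumors. Divided by it, Rgs5 was 2.37, 2.08 and 1.45 in B16F1 against 2.33 and 2.14 in B16F1-CXCL5 tumors, and its groups overlapped. Kcnj8 was 0.471, 0.281 and 0.367 against 0.507 and 0.473, and Abcc9 was 0.319, 0.235 and 0.288 against 0.320 and 0.445. Both stayed apart, as did 2.56% of tested genes in this direction, but by a margin far smaller than the spread within a group. Tagln was 1.60, 1.57 and 1.69 against 1.44 and 1.39, lower in both B16F1-CXCL5 libraries, as was so for 30.9% of tested genes. The ratios of the other 5 genes overlapped. Over 16 ratios compared within libraries, the exact two-sided permutation p was 0.1 for Tagln, the smallest that 10 splits allow, and 0.2 or more for the others, and the lowest of their adjusted p-values was 0.985. Acta2 stood 1.75 to 3.07 times above Rgs5, with overlapping groups.

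Other pericyte genes had a wider range of differences. Of 25 such genes outside the 9, 15 were tested, and 0 passed the limma test in either direction (0.136% of tested genes did). At an unadjusted p under 0.05, 3 were higher (3.57% of tested genes were). A positive log2 fold change was found for 12 (46.6% of tested genes), and the median was 0.10. Ndufa4l2, a mitochondrial protein abundant in pericytes and also induced by hypoxia, had 8.75, 9.64 and 11.5 FPKM in B16F1 and 14.1 and 17.9 FPKM in B16F1-CXCL5 tumors, with a log2 fold change of 0.63 and an interval from 0.26 to 1.00 (limma adjusted p = 0.39). Art3, an ADP-ribosyltransferase family member, had 13.0, 19.1 and 22.9 against 41.1 and 24.1 FPKM (limma adjusted p = 0.532). Rgs4, a relative of Rgs5 also found in pericytes, had 0.712, 0.771 and 0.965 against 1.48 and 1.36 FPKM (limma adjusted p = 0.488), and it passed the filter only through the B16F1-CXCL5 libraries. The groups did not overlap, with higher values in B16F1-CXCL5 tumors, for 3 of the 15 tested pericyte genes, against 10.8% of tested genes. Those 3 were the genes just given, which were named because their p-values were the smallest of the list. Rgs4 adds nothing to that count because the filter let it in through the group where it was high. Des, desmin, an intermediate filament of pericytes and of all muscle, had 24.6, 32.6 and 78.2 against 33.2 and 48.9 FPKM and was highest in the libraries rich in skeletal muscle markers.

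Relatives of Rgs5 included larger differences than Rgs5 itself. Of 12 other genes for small regulators of G protein signalling, 8 were tested. Of these, 0 passed the limma test (0.136% of tested genes did), and 4 were higher at an unadjusted p under 0.05, against 3.57% of tested genes. Rgs4, 1 of these 4, passed the filter only through the B16F1-CXCL5 libraries. Rgs2 had 2.07, 2.16 and 2.54 FPKM in B16F1 and 5.57 and 4.26 FPKM in B16F1-CXCL5 tumors, with a log2 fold change of 0.86 and an interval from 0.50 to 1.21 (limma adjusted p = 0.201). Rgs1, found mainly in leukocytes, had 1.06, 1.16 and 1.12 against 5.10 and 2.04 FPKM (limma adjusted p = 0.444). Rgs16 had 1.57, 1.74 and 2.23 against 3.06 and 2.82 FPKM (limma adjusted p = 0.459). Neutrophil markers moved with the same groups: 8 of 8 were tested, 5 rose (against 0.128% of tested genes), none was at 0, and their summed FPKM was 18.2 to 54.8 in B16F1 and 744 to 818 in B16F1-CXCL5 tumors. Of the 5, Csf3r and Retnlg reached an FPKM of 1 in only 1 B16F1 library and so passed the filter through the B16F1-CXCL5 libraries. The part of leukocytes in the Rgs1, Rgs2 and Rgs16 values was not tested.

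**Figure D4:**
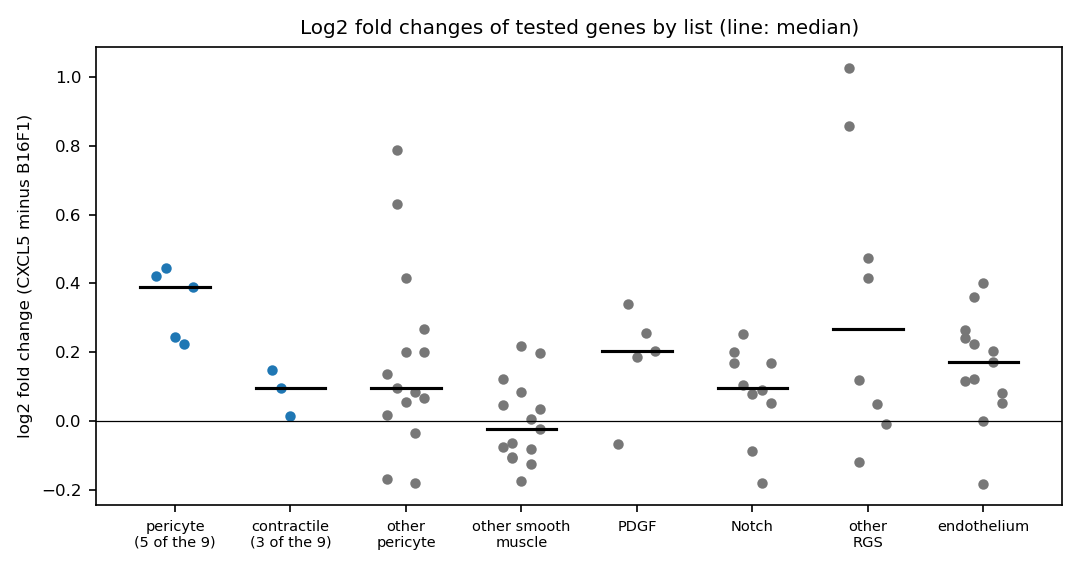
Log2 fold changes, B16F1-CXCL5 minus B16F1, of the tested genes of each list, 1 point per gene, with a line at the median. Mcam and the remaining lists, among them fibroblast and macrophage markers, are not drawn. Rgs4 is in both the other pericyte and the other RGS list. The medians drawn run from -0.02 for other smooth muscle genes to 0.39 for the 5 pericyte genes, and no gene drawn passed after adjustment.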

How the data were processed

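Per the labels, poly(A) RNA of whole tumors was sequenced from strand-specific libraries, of which there were 5. The authors deposited 1 table of FPKM values, with a column for each library named by its title, and no column was unmapped. Cufflinks 2.2.1, TopHat2 2.0.10, SAMtools 0.1.1.9, Bowtie 1.0.0 and FastQC 0.10.1 and build GRCm38 (mm10) are named in the submitters' processing notes. No source used here gives the annotation, the strand setting or how libraries were scaled to one another. Differences were tested with limma 3.58.1 (R 4.3.3) on log2(FPKM + 1), which understates changes of low genes, with an intensity trend and Benjamini-Hochberg adjustment over genes that reached an FPKM of 1 in 2 or more libraries. The fit was tested on simulated data. Intervals are 95% and are not adjusted for multiple tests. P-values measure the spread between these libraries. Ratios were compared by exact two-sided permutation of log2 ratios.

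The 9 genes and 18 lists of 171 symbols, each matched to a row (5 by an older name), were chosen with earlier results of these data known. Named genes of a list are the 3 of smallest p and the 2 of highest mean FPKM, plus any PDGF, Notch or channel gene, and the 3 genes most like Rgs5 and Acta2. Exceptions are Srf, Mkl1, Mkl2 and Myocd, named for their role, and Actg2, Tpm2, Ppp1r12b and Ldb3, named for their order of libraries. These were named after their values were seen. Acta1 is among the 2 most abundant muscle markers. Depth was estimated from genes with 1 annotated transcript of 800 to 6000 nt (GENCODE M21).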

Additional observations from a re-analysis of the deposited data

How the results depend on the processing

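In 14 alternative settings none of the 9 genes passed limma's adjusted threshold, and the lowest adjusted p was 0.381, for Abcc9 with library weights. Under the filter on a mean FPKM of 3 only 5 of the 9 were tested. The median log2 fold change of the 9 was 0.22 to 0.29 with every library kept and 0.12 to 0.28 with 1 library left out. Rgs5, Abcc9, Kcnj8, Pdgfrb, Notch3 and Acta2 were positive in every setting that tested them, but with 1 library left out some fell by over 1.5 times: Rgs5 to 0.25 (without B16F1-CXCL5 library 1), Pdgfrb to 0.07 and Notch3 to 0.12 (without B16F1 library 2) and Acta2 to 0.08 (without B16F1 library 1). Without B16F1-CXCL5 library 2 Notch3 was 0.13, and without B16F1 library 3 Pdgfrb was 0.43 and Acta2 0.23. With 1 library left out, Abcc9 ranged from 0.32 to 0.52 and Kcnj8 from 0.30 to 0.55. Their highest values were at the pseudocount 0.1, with 0.62 for Abcc9 and 0.61 for Kcnj8. When 1 library was left out, the log2 fold change of Tagln ranged from -0.093 to 0.121, that of Myh11 from -0.099 to 0.289 and that of Mcam from -0.045 to 0.271, and all 3 were positive in every setting that kept all libraries. The number of genes called over the whole table was 17, against 39 without the intensity trend, 31 with library weights, 8 at the pseudocount 0.1, 7 under the filter on mean FPKM and 2 to 34 with 1 library left out. The cause of these shifts was not tested. With 1 B16F1-CXCL5 library, that library is assumed to vary like the others.

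Replicate numbers in the titles are shared by only 2 pairs, whose deviations from the group means correlated at -0.03 and -0.02. With 2 B16F1-CXCL5 libraries, the deviations of that group are mirror images of each other. These correlations therefore cannot decide whether the numbers mark a pairing. With the number as a replicate block, 46 genes and 0 of the 9 were called, and the median of the 9 was 0.28. Number 3 occurs only in B16F1, so the block takes up that library. The log2 fold changes of the 9 were therefore the same as without B16F1 library 3, and this setting is no separate check of them.

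Precision was limited by the 3 and 2 libraries, and the 95% intervals of 7 of the 9 genes included 0.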
